A study of Homo sapiens with 36 samples.

Results

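The genes described here are 46 human genes known for their use in neurons and at synapses, taken as a list of symbols and looked up in RNA sequencing of 293T and MDA-MB-231 cells. They fall into 6 roles: 11 genes of synaptic vesicles and transmitter release, 6 of granins and dense core granules, 12 of the neuronal cytoskeleton and growth cone, 3 kinesins of axonal transport, 8 adhesion molecules and receptors, and 6 regulators of neuronal expression and polarity. Of the 46, 42 were found in at least 1 of the 4 deposited count tables, which together held 20633 genes. The rule looked members up by symbol alone, but the list was chosen with earlier results of these data known. Counts of members below may therefore not be independent of those results.

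The 36 libraries made 12 groups of 3. Both lines are human and established: 293T derives from embryonic kidney and carries the SV40 large T antigen, and MDA-MB-231 is a triple-negative breast cancer line. In each line, cells given a control siRNA (siControl) were set beside cells given siEglN2-1 or siEglN2-2, and cells given a control shRNA (shControl) beside cells given shKDM5A-1 or shKDM5A-2. EglN2 is a prolyl hydroxylase, and KDM5A removes H3K4me3, a histone mark of active promoters. The study asked how EglN2, a hydroxylated proline of histone H3, KDM5A and H3K4me3 are connected. All groups grew in DMEM with 10% fetal bovine serum and 1% penicillin and streptomycin. The labels give no time after transfection or transduction and do not state that replicate libraries were grown as separate cultures, so p-values measure the spread between these libraries, which may be technical. RNA came from whole cultures, so fewer cells that express a gene and less RNA per cell cannot be told apart.

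Neurons release transmitter from vesicles that dock at the active zone and fuse through SNARE proteins when calcium enters, and they store peptides in dense core granules packed with granins. Most of these genes are silent or low outside the nervous system and endocrine glands. The repressor REST is one known brake: it binds the RE1 element in or near many neuronal genes and recruits the corepressors RCOR1 and SIN3A with histone deacetylases and the demethylase KDM1A. KDM5C, a relative of KDM5A, is known to act at genes that REST controls.

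The libraries of 293T held between 20535505 and 27592124 counts in the EglN2 experiment and between 17176744 and 23417896 in the KDM5A experiment. Those of MDA-MB-231 held between 14361177 and 18011723 counts for EglN2 and between 14850567 and 19661516 for KDM5A. The targeted genes followed the labels: EGLN2 had log2 fold changes of -1.57 and -1.54 with siEglN2-1 and siEglN2-2 in 293T and -2.24 and -2.29 in MDA-MB-231, and KDM5A had -1.30 and -1.08 with shKDM5A-1 and shKDM5A-2 in 293T and -1.57 and -1.42 in MDA-MB-231. A list of 12 genes typical of MDA-MB-231 (VIM, CAV1, S100A4 and others) summed to between 9031 and 9175 CPM (counts scaled to the library total) in the siControl libraries of MDA-MB-231 and to between 800.5 and 905.1 in those of 293T. A pair of control libraries stood apart from their groups. The 293T siControl library with no replicate number had chi-square values per degree of freedom of 17.9 and 21.3 against the others, which stood at 2.01 from each other, and MDA-MB-231 siControl replicate 1 had 6.41 and 7.27 where the others had 1.58. Calls of members against their controls that are lost without these libraries are given both ways. Members called only without them are not named.

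The members were unevenly spread between the lines. In 293T, 40 of the 46 were in the KDM5A table and 39 in the EglN2 table. In MDA-MB-231, 23 were in the KDM5A table and 22 in the EglN2 table. Of the 20633 genes in any table, 18561 and 18770 were in these tables of 293T, and 16197 and 15830 in those of MDA-MB-231. The libraries of MDA-MB-231 mostly held fewer counts. Every row of these tables reached 10 counts in at least 1 library, so an absent row may mean a level below that. Of the members, 20 were in all 4 tables and 19 only in tables of 293T, among them the neurofilament genes NEFL and NEFM, the kinesin genes KIF1A, KIF5A and KIF5C, and the granin genes CHGA, CHGB and SCG3. SCG2, which encodes secretogranin II, and DNER, a neuronal ligand of Notch, were only in tables of MDA-MB-231. SNAP25, NEFH, ELAVL3 and ELAVL4 were in none.

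Levels per kilobase of exon in the control libraries show which of these genes each line already used. In 293T shControl the highest was NEFL, the light neurofilament subunit, at 29 ± 0.981 CPM per kilobase (SD, n = 3). Next came NEFM, the medium subunit, at 20.3 ± 0.397, and NLGN2, a postsynaptic adhesion protein of inhibitory synapses, at 19 ± 1.00. The siControl libraries of 293T had the same pair on top, with NEFL at 23.2 ± 0.752 and NEFM at 18.2 ± 0.807, and NEFM and DPYSL5 at 17.4 ± 1.42 did not differ beyond their spread. In MDA-MB-231 shControl the highest was TUBB3, a neuronal β-tubulin, at 28.7 ± 1.23, followed by MAP1B, which binds microtubules, at 26.2 ± 0.990. NLGN2 at 17.4 ± 0.480 and L1CAM, an adhesion molecule of axons, at 17.2 ± 0.254 came next and did not differ beyond their spread. In MDA-MB-231 siControl the order differed: TUBB3 at 25.0 ± 1.02 was again the highest, followed by STX1A at 18.9 ± 1.2 and L1CAM at 18.5 ± 0.357, which did not differ beyond their spread, and then MAP1B at 13.7 ± 0.288. REST stood at 3.78 ± 0.345 CPM per kilobase in 293T shControl and at 5.62 ± 0.349 in MDA-MB-231 shControl. In siControl the order of the lines was the other way, with REST at 4.73 ± 0.603 in 293T and 3.94 ± 0.265 in MDA-MB-231. The lowest members present were CHGB in 293T shControl, at 0.0605 ± 0.0270, and BSN in MDA-MB-231 shControl, at 0.0326 ± 0.00696. The library kit does not mark strand, and exons shared with neighbours limit some levels and the fold changes of the same genes. Of the exon bases of NEFM, 38.9% overlap AF106564.1, and of those of TUBB3, 35.8% overlap AC092143.1. For STX1A 17.9% overlap BUD23, and for NEFL 11.3% overlap AC107373.2.

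Promoter windows of RefSeq (GRCh38.p14, 250 bases before to 50 after the start) were found for 30 of the 46 members and searched on both strands for both parts of the RE1 element, since REST is the textbook repressor of this class. Only 1 window per member was searched, and some lay well inside the gene. That of SV2A was chr1:149906942-149907241, in a minus strand gene at chr1:149903318-149917882. A member without a match may therefore hold one at another start. The exact left part, TTCAGCACC, was in 4 of the 30 windows (13.3%), against 0.376% of 35116 windows of all genes, and the exact right part, GGACAGCGC, in 6 (20.0%), against 0.581%. With up to 1 mismatch the shares were 23.3% against 7.68% for the left part and 40.0% against 11.6% for the right. The windows of the members had a median of 67.3% G and C, against 58.7% over all windows. The stretches below are shown because they hold the exact RE1 parts, which are in capitals. They are written 5′ to 3′ on the strand of the gene, with positions counted from 0 at the first transcribed base.
SYN1, chrX:47620048-47620107, minus strand: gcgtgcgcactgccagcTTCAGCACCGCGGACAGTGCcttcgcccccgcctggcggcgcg
CELSR3, chr3:48663017-48663131, minus strand: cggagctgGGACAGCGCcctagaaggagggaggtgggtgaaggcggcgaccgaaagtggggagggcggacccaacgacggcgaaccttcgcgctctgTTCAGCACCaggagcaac
BSN, chr3:49554332-49554391, plus strand: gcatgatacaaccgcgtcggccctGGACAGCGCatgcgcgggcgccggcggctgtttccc
PRTG, chr15:55743163-55743222, minus strand, -70 to -11: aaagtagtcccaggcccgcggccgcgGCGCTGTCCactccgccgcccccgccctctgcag
VGF, chr7:101165559-101165578, minus strand, -9 to 10: GCGCTGTCCAGCGTGCTGAA
SCG3, chr15:51681511-51681536, plus strand, 8 to 33: TTCAGCACCcacagggcGGACAGCGC
UNC13A, chr19:17688340-17688365, minus strand, -11 to 14: GCGCTGTCCgcgcccccGGTGCTGAA
In SYN1 and VGF the capitals cover both parts and the 2 bases between them. With the parts set 2 bases apart as TTCAGCACCNNGGACAGCGC and up to 4 mismatches allowed, 3 of the 30 windows matched (10.0%), against 0.658% of all windows. SYN1 differed from that motif by C18T alone and VGF by C9G alone, with positions counted from 1 at the 5′ end of the motif and the base of the motif first. The third was CELSR3, with G13A, A14G and G17A. A match describes letters in the window and is no evidence of binding.

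**Figure D1:**
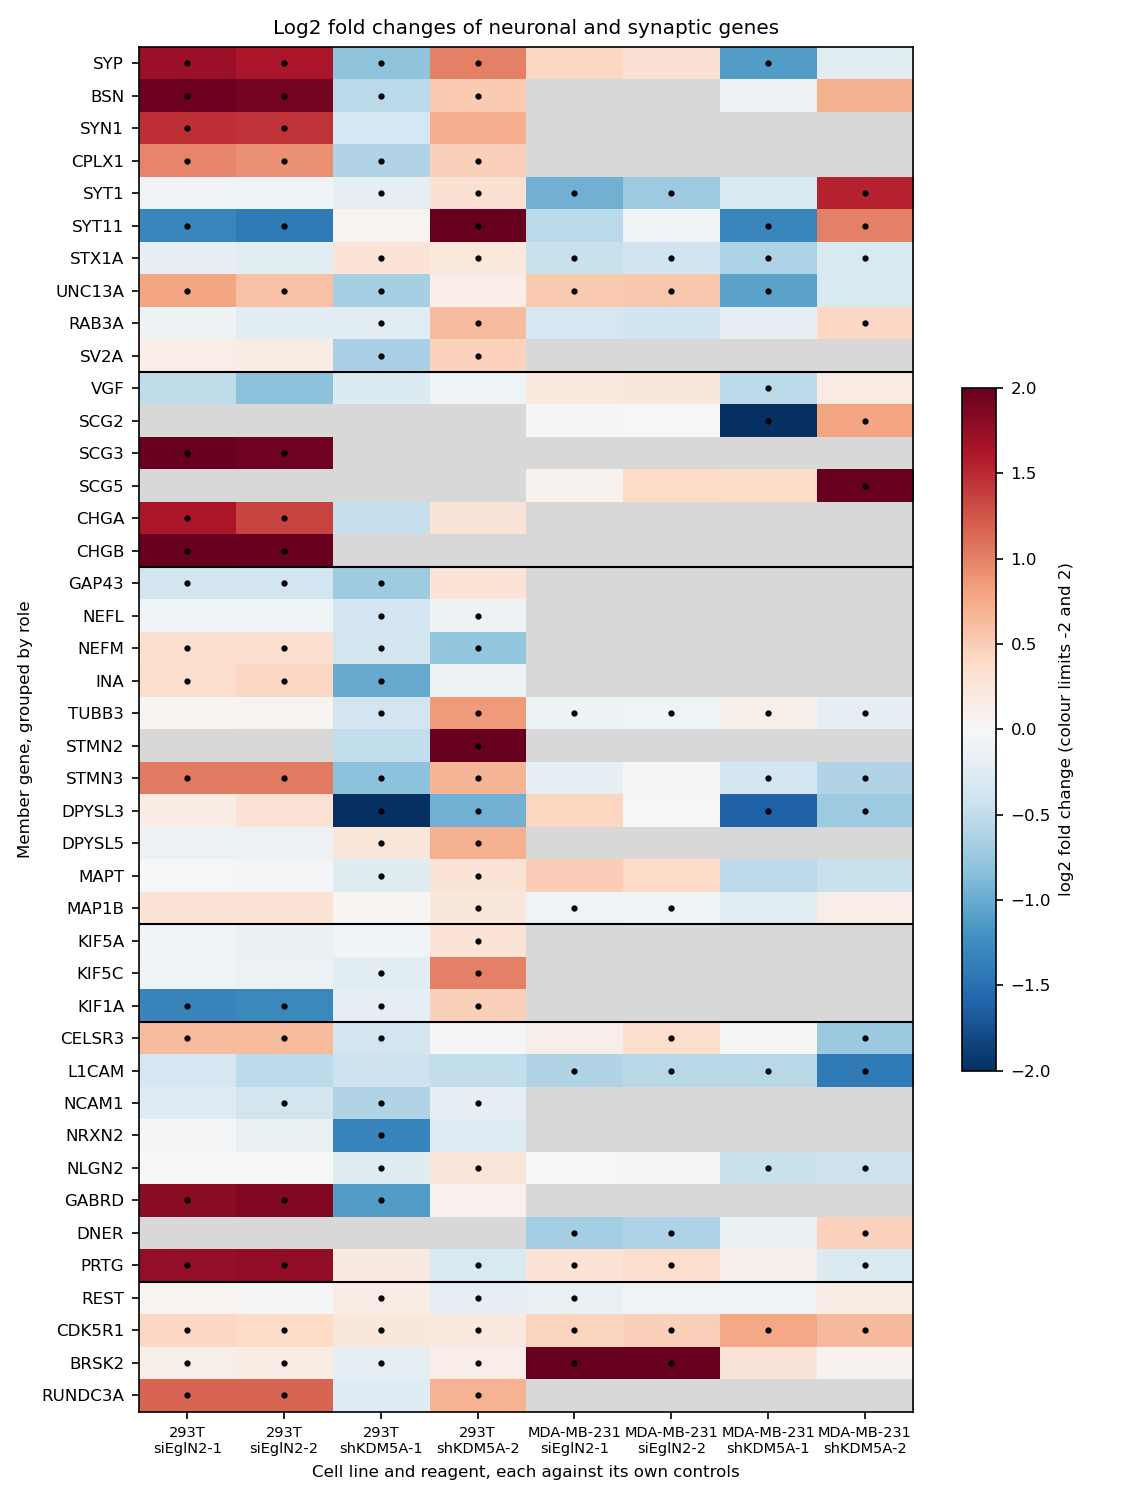
Log2 fold changes of the members (rows, grouped by role) in the 8 comparisons of a reagent with its controls (columns); color runs from -2 to 2, a dot marks an adjusted p under 0.05, and gray marks a member not tested there. The 2 siEglN2 columns of 293T hold 17 dots each for higher members, while the shKDM5A-1 column of 293T holds 23 for lower members and the shKDM5A-2 column 21 for higher ones. SYN1, SCG3 and CHGB in the siEglN2 columns of 293T, and STMN2 in its shKDM5A-2 column, passed the filter on low counts through those knockdown libraries.

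The EglN2 siRNAs address whether lowering EglN2 changes RNA levels. In 293T, more of the neuronal and synaptic genes rose than fell. Of 38 members that passed the filter on low counts, 17 rose and 3 fell with siEglN2-1, and 17 rose and 4 fell with siEglN2-2 (edgeR quasi-likelihood test, Benjamini-Hochberg adjusted p under 0.05 over all genes). SYN1, SCG3 and CHGB, which rose with both, passed the filter through their siEglN2 libraries. Members let through that way could hardly be counted as lower. Over all 17622 genes tested, 16.9% rose and 18.2% fell with siEglN2-1, and 16.8% rose and 17.3% fell with siEglN2-2. The median log2 fold change of the members was 0.13 and 0.15, against 0.01 for all genes with either siRNA. Both siRNAs were compared with the same 3 controls, so their values stand side by side and are not independent. Without the unnumbered control library, 23 and 24 members were called in place of 20 and 21. The members called only without it, and their directions, are not given. Members said below not to pass were judged with that library included. The share of all genes called without it is not given, so this change is not read as particular to the members.

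Of 10 genes of the vesicle and release machinery tested, 5 rose and 1 fell with either siRNA. SYP encodes synaptophysin, an abundant membrane protein of synaptic vesicles (chrX:49187804-49200259). It had 6.88, 6.85 and 7.89 CPM in the siControl libraries, against 25.1, 22.8 and 22.7 in the siEglN2-1 libraries and 21.9, 22.5 and 22.7 in the siEglN2-2 libraries. All 6 siEglN2 libraries lay far above all 3 controls. The log2 fold change was 1.71 (SE 0.07, adjusted p = 1.91e-07) with siEglN2-1 and 1.64 (SE 0.07, adjusted p = 2.6e-07) with siEglN2-2. BSN encodes bassoon, a scaffold of the active zone (chr3:49554489-49671545), and its promoter stretch with the right RE1 part is printed above. It had 5.06, 4.74 and 3.83 CPM in siControl, against 17.9, 17.7 and 17.8 in the siEglN2-1 libraries and 17.7, 15.6 and 18.4 in the siEglN2-2 libraries. The groups did not overlap, with log2 fold changes of 1.96 (SE 0.10, adjusted p = 5.23e-07) and 1.91 (SE 0.10, adjusted p = 6.97e-07). CPLX1, complexin 1, which controls SNARE-driven fusion, rose by 0.97 and 0.91 on the log2 scale. UNC13A, which primes vesicles for release, rose by 0.79 and 0.59, and the siEglN2-2 call was lost without the unnumbered control library (adjusted p = 0.0856), siControl replicate 2 (0.0766), siEglN2-2 replicate 1 (0.0880) or siEglN2-2 replicate 2 (0.0747).

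The vesicle gene that fell was SYT11, a synaptotagmin that does not bind calcium (chr1:155859509-155885199). It had 1.48, 1.33 and 1.28 CPM in siControl, against 0.467, 0.732 and 0.446 in the siEglN2-1 libraries and 0.336, 0.611 and 0.547 in the siEglN2-2 libraries. All 6 siEglN2 libraries lay below all controls, with log2 fold changes of -1.30 (SE 0.27, adjusted p = 0.00401) and -1.42 (SE 0.27, adjusted p = 0.00268). SYN1, synapsin 1, a protein of the vesicle surface, had 4, 13 and 2 counts in siControl, against 21, 16 and 15 in the siEglN2-1 libraries and 13, 27 and 13 in the siEglN2-2 libraries. SYN1 passed the filter through its siEglN2 libraries. The highest control and the lowest siEglN2-2 library had the same count, and the log2 fold changes of 1.47 (SE 0.47, adjusted p = 0.0329) and 1.45 (SE 0.47, adjusted p = 0.0357) rest on few counts. Without siControl replicate 1 the adjusted p was 0.101 and 0.108. The siEglN2-1 call was also lost without any one of the siEglN2-1 libraries or siEglN2-2 replicate 1, and the siEglN2-2 call without any one of the 6 siRNA libraries (adjusted p up to 0.147). SYT1, the calcium sensor of fast release, STX1A, the SNARE protein syntaxin 1A, RAB3A, a vesicle GTPase, and SV2A, a vesicle glycoprotein, had log2 fold changes between -0.23 and 0.15 and did not pass.

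Of 4 granins tested, 3 rose with either siRNA, all from low levels. CHGA encodes chromogranin A, a classical marker of neuroendocrine granules (chr14:92923080-92935293). It had 0.675, 0.470 and 0.851 CPM in siControl, against 2.08, 1.55 and 2.5 in the siEglN2-1 libraries and 1.77, 1.44 and 1.87 in the siEglN2-2 libraries. The lowest siEglN2 library was above the highest control, with log2 fold changes of 1.63 (SE 0.26, adjusted p = 0.00088) and 1.35 (SE 0.27, adjusted p = 0.00297). SCG3, which sorts granins at the granule membrane and whose window holds both exact RE1 parts, had 4, 1 and 1 counts in siControl, against 15, 13 and 14 in the siEglN2-1 libraries and 9, 8 and 7 in the siEglN2-2 libraries. Its log2 fold changes were 2.76 (95% interval 1.84 to 3.67, adjusted p = 0.00123) and 1.94 (95% interval 0.93 to 2.94, adjusted p = 0.0145). CHGB, chromogranin B, had 4, 0 and 3 counts in siControl, against 11, 12 and 14 in the siEglN2-1 libraries and 13, 11 and 10 in the siEglN2-2 libraries. Its log2 fold changes were 2.36 (95% interval 1.23 to 3.49, adjusted p = 0.00942) and 2.22 (95% interval 1.07 to 3.37, adjusted p = 0.0142). Both genes passed the filter through their siEglN2 libraries, and both lost the siEglN2-2 call without siEglN2-2 replicate 1 (adjusted p = 0.0539 for SCG3 and 0.0564 for CHGB). SCG3 also lost it without siControl replicate 2 (adjusted p = 0.0511). VGF, a granin precursor of neuropeptides, had log2 fold changes of -0.51 and -0.81 that did not pass.

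Of 10 cytoskeleton genes tested, 3 rose and 1 fell with either siRNA. STMN3, a stathmin that binds tubulin dimers (chr20:63639705-63657682), had 20.6, 23.0 and 25.7 CPM in siControl, against 47.6, 49.0 and 45.8 in the siEglN2-1 libraries and 47.1, 46.2 and 49.2 in the siEglN2-2 libraries. The siEglN2 libraries lay within a few CPM of each other and well above the controls, with log2 fold changes of 1.04 (SE 0.07, adjusted p = 3.8e-06) and 1.04 (SE 0.07, adjusted p = 3.78e-06). NEFM rose by 0.32 and 0.32, and INA, the intermediate filament protein α-internexin, by 0.35 and 0.41. GAP43, a growth cone protein, fell by 0.37 and 0.38 on the log2 scale, but without the unnumbered control library its values were -0.24 (adjusted p = 0.0789) and -0.25 (adjusted p = 0.0686). Both GAP43 calls were also lost without siControl replicate 1, the siEglN2-1 call without any one of the 6 siRNA libraries (adjusted p up to 0.125) and the siEglN2-2 call without any one siEglN2-2 library (adjusted p up to 0.0910). NEFL, TUBB3, DPYSL3, DPYSL5, MAPT and MAP1B did not pass with either siRNA.

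Among the 3 kinesins, KIF1A, the motor of synaptic vesicle precursors (chr2:240713761-240821036), fell. It had 118, 117 and 95.7 CPM in siControl, against 44.7, 45.8 and 42.0 in the siEglN2-1 libraries and 44.3, 44.3 and 46.1 in the siEglN2-2 libraries. Every control lay far above every siEglN2 library. The log2 fold changes were -1.32 (SE 0.08, adjusted p = 1.15e-06) and -1.29 (SE 0.08, adjusted p = 1.24e-06). KIF5A and KIF5C, heavy chains of conventional kinesin, had log2 fold changes between -0.13 and -0.05 and did not pass.

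Of 7 adhesion molecules and receptors tested, 3 rose with either siRNA. GABRD, the δ subunit of the GABA-A receptor (chr1:2019298-2030758), had 1.14, 1.64 and 1.99 CPM in siControl, against 4.92, 5.90 and 5.89 in the siEglN2-1 libraries and 5.94, 5.53 and 5.70 in the siEglN2-2 libraries. The groups did not overlap, with log2 fold changes of 1.81 (SE 0.17, adjusted p = 2.72e-05) and 1.85 (SE 0.17, adjusted p = 2.35e-05). PRTG encodes protogenin, an immunoglobulin superfamily protein of the developing nervous system (chr15:55611546-55743090). It had 14.9, 15.2 and 8.89 CPM in siControl, against 43.7, 46 and 42.9 in the siEglN2-1 libraries and 44.9, 42.8 and 46.4 in the siEglN2-2 libraries. The lowest value was that of the unnumbered control library. On the log2 scale the fold changes were 1.75 (SE 0.15, adjusted p = 1.33e-05) and 1.77 (SE 0.15, adjusted p = 1.34e-05), and 1.55 and 1.56 without that library. CELSR3, an atypical cadherin of axon guidance, rose on the log2 scale by 0.64 with both siRNAs. NCAM1, the neural cell adhesion molecule, fell with siEglN2-2 by 0.36 (adjusted p = 0.0116), a call lost without siEglN2-2 replicate 1 (adjusted p = 0.0522), and had -0.25 with siEglN2-1 (adjusted p = 0.0551). NLGN2, NRXN2 and L1CAM did not pass.

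**Figure D2:**
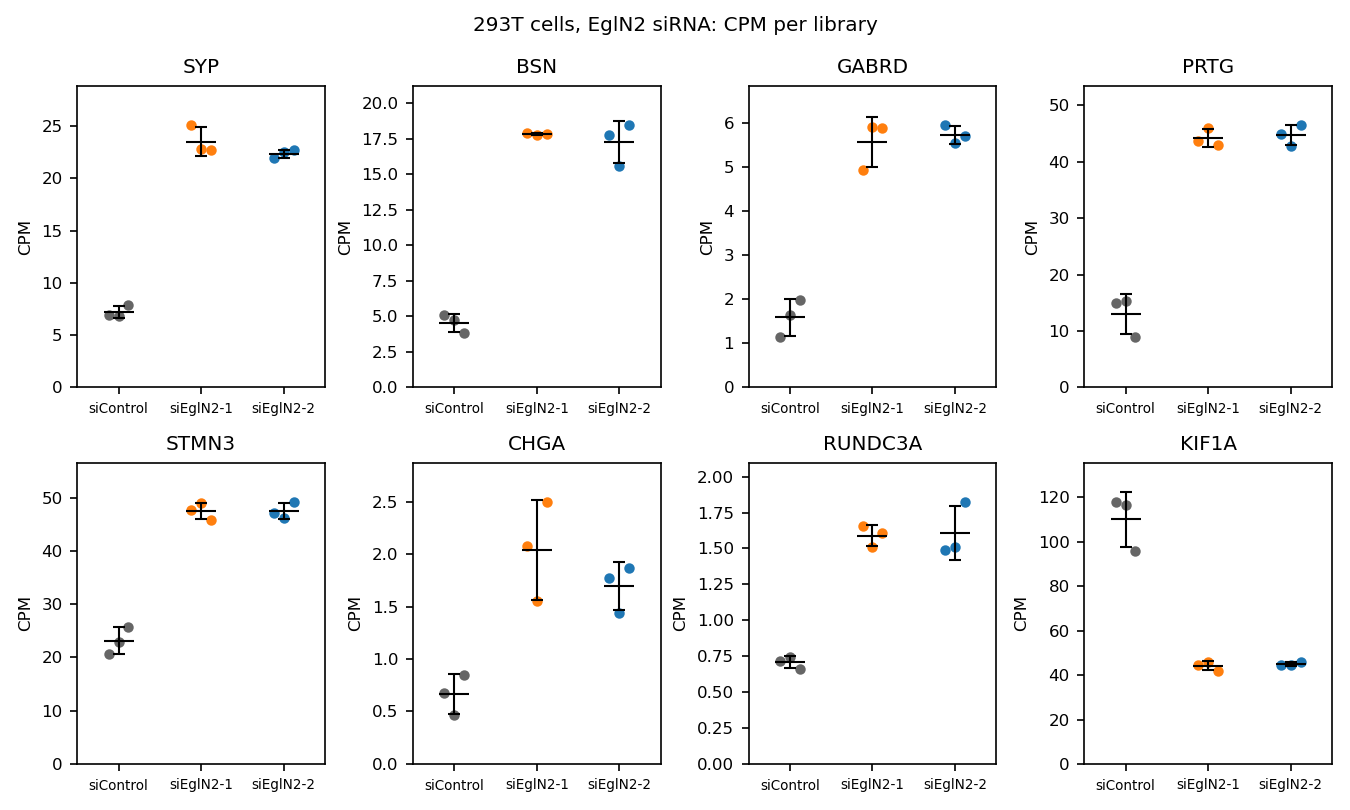
CPM (linear axes from 0) of 8 members in the 9 libraries of the 293T EglN2 experiment; points are libraries and bars give the group mean ± SD (n = 3). In SYP, BSN, GABRD, PRTG, STMN3, CHGA and RUNDC3A every siEglN2 library lies above every siControl library, and in KIF1A every one lies below.

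Of 4 regulators tested, 3 rose with either siRNA. RUNDC3A, a neuronal protein that binds a Rap GTPase (chr17:44308413-44318671), had 0.718, 0.744 and 0.662 CPM in siControl, against 1.65, 1.51 and 1.61 in the siEglN2-1 libraries and 1.49, 1.51 and 1.82 in the siEglN2-2 libraries. The groups did not overlap, with log2 fold changes of 1.16 (SE 0.18, adjusted p = 0.000809) and 1.17 (SE 0.18, adjusted p = 0.000752). CDK5R1, the activator of the neuronal kinase CDK5, rose by 0.42 and 0.40. BRSK2, a kinase of neuronal polarity, rose by 0.12 and 0.15, and with siEglN2-1 that call was lost in 13 of 16 alternatives, leaving out any one of the numbered libraries among them (adjusted p up to 0.134). The siEglN2-2 call was lost in 4 of 16, without siControl replicate 1 (adjusted p = 0.0647) and without siEglN2-2 replicate 1 (adjusted p = 0.0758) among them. The fourth was REST, which is described with all its libraries further on.

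All 7 members with an exact RE1 part in the window were tested in this experiment. Of these, 6 rose and 0 fell with either siRNA, against 6 that rose and 3 that fell with either siRNA among 21 tested members whose window held none. The one of the 7 that did not pass was VGF. Without siEglN2-2 replicate 1, the siEglN2-2 calls of SCG3, SYN1 and UNC13A were lost (adjusted p = 0.0539, 0.0625 and 0.0880), and SCG3 and SYN1 passed the filter through their siEglN2 libraries. The counts are a description of few genes, some at low counts, and carry no test.

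Lists of other genes of the synapse and of REST were counted beside the members. Of 23 ion channels and transmitter receptors tested, 13 rose and 2 fell with siEglN2-1 and 11 rose and 1 fell with siEglN2-2. CACNA1B, the pore of N-type calcium channels at nerve terminals, rose by 1.49 and 1.26, KCNC1, a potassium channel of fast-firing neurons, by 1.27 and 1.17, and the sodium channel gene SCN8A by 0.78 and 0.67. Of 33 other genes of the vesicle cycle, 8 rose and 2 fell with siEglN2-1 and 9 rose and 2 fell with siEglN2-2. RAB3C, a vesicle GTPase, rose by 0.99 and 1.05, PCLO, the active zone scaffold piccolo, by 0.86 and 0.91, and DOC2A, a calcium sensor of release, by 0.73 and 0.67. Of 15 neuronal transcription factors, 3 rose and 2 fell with siEglN2-1 and 3 rose and 1 fell with siEglN2-2. Of 21 corepressors and regulators of REST, 5 rose and 5 fell with either siRNA. BTRC, the F-box protein that targets REST for degradation, rose by 0.58 and 0.54, the phosphatase gene CTDSP2 by 0.38 and 0.39, and the corepressor gene SIN3B by 0.37 and 0.35.

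Markers of other cell types were read in the same libraries. Of 16 glial and microglial markers, 7 were in the 293T EglN2 table, and 1 rose and 1 fell with either siRNA: MBP, a myelin gene, rose by 0.53 and 0.61, and OLIG2, a factor of oligodendrocytes, fell by 0.56 and 0.49. Their summed level ran from 45.6 to 51.5 CPM in siControl and from 45.3 to 49.6 with the siRNAs. Among the markers with no row in the table were S100B, MOG, SOX10, AIF1, CX3CR1, CSF1R, P2RY12 and TMEM119. The MDA-MB-231 markers moved with the siRNAs, from 800.5 to 905.1 CPM in siControl to between 685.9 and 697.2, with 6 of 8 tested genes lower with siEglN2-1, 5 lower with siEglN2-2 and 0 higher. The summed level of the 293T markers ran from 355.1 to 388.4 CPM in siControl and from 407.3 to 423.6 with the siRNAs. The part of these shifts in the results on the members was not tested.

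In MDA-MB-231, members moved in both directions with the EglN2 siRNAs, in shares not far from those of all genes. Of 22 members tested, 4 rose and 7 fell with siEglN2-1, and 5 rose and 6 fell with siEglN2-2. BRSK2, which rose with both, passed the filter through its siEglN2 libraries. Over 15109 genes, 21.5% rose and 23% fell with siEglN2-1, and 21.8% rose and 23.6% fell with siEglN2-2. The median log2 fold change of the members was -0.02 with siEglN2-1 and -0.00 with siEglN2-2, and that of all genes 0.00 with either. Without siControl replicate 1, 9 and 10 members were called in place of 11 and 11, again given without the share of all genes.

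Of 6 vesicle and release genes tested, 1 rose and 2 fell with either siRNA. SYT1 (chr12:78863993-79452008) had 4.62, 4.68 and 6.16 CPM in siControl, against 2.63, 2.76 and 2.49 in the siEglN2-1 libraries and 3.84, 2.70 and 2.74 in the siEglN2-2 libraries. It was lower in all 6 siEglN2 libraries than in any control, with log2 fold changes of -0.97 (SE 0.17, adjusted p = 6.49e-06) and -0.73 (SE 0.16, adjusted p = 0.000237). STX1A (chr7:73699206-73719672) had 74.6, 68.3 and 66.5 CPM in siControl, against 53.2, 51.3 and 49.0 in the siEglN2-1 libraries and 53.1, 53.4 and 52.4 in the siEglN2-2 libraries. Its groups did not overlap either, with log2 fold changes of -0.45 (SE 0.04, adjusted p = 4.53e-12) and -0.40 (SE 0.04, adjusted p = 8.7e-11), read with the exons it shares with BUD23. UNC13A went the other way, with 2.15, 1.65 and 1.77 CPM in siControl, against 2.82, 2.70 and 2.49 in the siEglN2-1 libraries and 2.60, 2.75 and 2.74 in the siEglN2-2 libraries. Its log2 fold changes of 0.52 (SE 0.20, adjusted p = 0.0338) and 0.54 (SE 0.20, adjusted p = 0.0258) were lost without siControl replicate 2 (adjusted p = 0.120 and 0.101) and without siControl replicate 3 (0.0846 and 0.0695), and each was lost without either of a pair of its own siRNA libraries (adjusted p up to 0.0877). SYP had log2 fold changes of 0.42 and 0.31 that did not pass, with 95% intervals of -0.06 to 0.90 and -0.18 to 0.79.

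Adhesion molecules moved in both directions. L1CAM (chrX:153861514-153886174) had 132, 137 and 135 CPM in siControl, against 88.7, 89.2 and 88.0 in the siEglN2-1 libraries and 91.4, 95.0 and 89.5 in the siEglN2-2 libraries. Controls and siEglN2 libraries were far apart for their spread, with log2 fold changes of -0.60 (SE 0.03, adjusted p = 7.11e-21) and -0.55 (SE 0.03, adjusted p = 1.19e-19). DNER (chr2:229357629-229714558) had 12.3, 13.1 and 12.8 CPM in siControl, against 8.13, 7.82 and 7.81 in the siEglN2-1 libraries and 7.85, 8.59 and 8.45 in the siEglN2-2 libraries. It fell in every siEglN2 library, with log2 fold changes of -0.68 (SE 0.09, adjusted p = 5.61e-08) and -0.61 (SE 0.09, adjusted p = 3.51e-07). PRTG had 10.8, 10.8 and 12.7 CPM in siControl, against 14.4, 13.4 and 13.8 in the siEglN2-1 libraries and 14.9, 15.9 and 13.1 in the siEglN2-2 libraries. It rose, with log2 fold changes of 0.28 (SE 0.09, adjusted p = 0.0101) and 0.36 (SE 0.09, adjusted p = 0.000924), but the siEglN2-1 call was lost without siControl replicate 1 (0.24, adjusted p = 0.0540) and without siControl replicate 2 (adjusted p = 0.0509). CELSR3 rose with siEglN2-2 by 0.34 and had 0.11 with siEglN2-1, which did not pass.

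Among regulators, BRSK2 (chr11:1389899-1462689) had 3, 3 and 2 counts in siControl, against 16, 13 and 17 in the siEglN2-1 libraries and 20, 19 and 24 in the siEglN2-2 libraries. It passed the filter through its siEglN2 libraries, and its log2 fold changes were 2.27 (95% interval 1.37 to 3.17, adjusted p = 6.25e-05) and 2.63 (95% interval 1.78 to 3.48, adjusted p = 2.08e-06). CDK5R1 had 5.33, 5.36 and 5.88 CPM in siControl, against 8.51, 7.42 and 6.79 in the siEglN2-1 libraries and 6.5, 7.54 and 8.89 in the siEglN2-2 libraries. Its groups did not overlap, with log2 fold changes of 0.45 (SE 0.13, adjusted p = 0.00295) and 0.47 (SE 0.13, adjusted p = 0.00175). Of 5 cytoskeleton genes tested, 2 fell with either siRNA, both by little: TUBB3 by 0.10 and 0.08, and MAP1B by 0.09 and 0.06 on the log2 scale. The TUBB3 calls were lost without siControl replicate 1 (adjusted p = 0.0647 and 0.180). The siEglN2-1 call of TUBB3 was also lost without siEglN2-1 replicate 1 (0.0795), and the siEglN2-2 call without siControl replicate 2 (0.133), siEglN2-2 replicate 1 (0.0724) or siEglN2-2 replicate 2 (0.133). The siEglN2-2 call of MAP1B was lost in 7 of 16 alternatives, among them without siControl replicate 2 (adjusted p = 0.140), siControl replicate 3 (0.149) and siEglN2-2 replicate 2 (-0.04, 0.256). The granins SCG2, SCG5 and VGF did not pass.

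Other lists in these libraries were mixed. Of 21 other vesicle genes, 5 rose and 4 fell with siEglN2-1 and 6 rose and 4 fell with siEglN2-2. SYNGR1, a synaptogyrin of vesicle membranes, rose by 0.78 and 0.72, PTPRN2, a dense core granule protein, by 0.65 and 0.66, and the synaptotagmin gene SYT2 fell by 0.68 and 0.58. Of 21 REST corepressors and regulators, 4 rose and 8 fell with siEglN2-1 and 5 rose and 6 fell with siEglN2-2, with BTRC at 0.77 and 0.84, CTDSP2 at 0.69 and 0.73, and the methyltransferase gene EHMT2 at 0.33 and 0.35. Of 10 ion channels and receptors, 1 rose and 1 fell with either siRNA, as did 1 and 1 of 3 transcription factors. Of 5 glial markers, 2 rose and 1 fell with either siRNA, and their summed level ran from 159.4 to 168.1 CPM in siControl and from 158.8 to 163.9 with the siRNAs. The MDA-MB-231 markers summed to between 9031 and 9175 CPM in siControl and between 8005 and 8230 with the siRNAs, with 8 of 12 lower with either siRNA. The part of that shift was not tested.

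The KDM5A shRNAs address whether lowering the demethylase changes RNA levels, and on these genes the 2 shRNAs gave opposite majorities in 293T. Of 37 members tested, 4 rose and 23 fell with shKDM5A-1, where 21.6% of 17376 genes rose and 20.6% fell. With shKDM5A-2, 21 rose and 6 fell, where 19.5% of genes rose and 19.5% fell. STMN2, one of those that rose, passed the filter through its shKDM5A-2 libraries. Set directly against each other, 29 members were higher and 3 lower with shKDM5A-2 than with shKDM5A-1, where 24.3% of all genes were higher and 25% lower. STMN2 and SYN1 were among the 29, and both passed the filter largely through their shKDM5A-2 libraries. Members let through that way could hardly be counted as lower. The median log2 fold change of the members was -0.36 with shKDM5A-1, 0.26 with shKDM5A-2 and 0.72 between the shRNAs, against -0.00, 0.00 and -0.00 for all genes. The KDM5A transcript had a mean of 27.2 CPM with shKDM5A-1 and of 31.6 with shKDM5A-2, from 66.8 in shControl.

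Of 10 vesicle genes tested, 1 rose and 7 fell with shKDM5A-1, 8 rose and 0 fell with shKDM5A-2, and 9 were higher with shKDM5A-2 in the direct contrast. SYN1 was among the 9, with 22 counts summed over the shKDM5A-1 libraries and 54 over the shKDM5A-2 libraries. Its difference of 1.08 (adjusted p = 0.0290) was lost without shKDM5A-1 replicate 1 (0.0993) or shKDM5A-2 replicate 1 (0.103), among other single libraries. SYP had 12.4, 13.2 and 14.9 CPM in shControl, against 8.93, 6.61 and 7.74 in the shKDM5A-1 libraries and 27.9, 28.2 and 25.3 in the shKDM5A-2 libraries. The 3 groups did not overlap, with controls in the middle. The log2 fold changes were -0.80 (SE 0.10, adjusted p = 4.17e-08) and 1.01 (SE 0.08, adjusted p = 1.85e-12), and the shRNAs differed by 1.81 (SE 0.09, adjusted p = 1.45e-17). SYT11 had 1.38, 1.82 and 1.22 CPM in shControl, against 1.43, 1.75 and 1.44 in the shKDM5A-1 libraries and 6.35, 6.69 and 6.44 in the shKDM5A-2 libraries. Only the shKDM5A-2 libraries stood apart, with log2 fold changes of 0.05 (SE 0.21, adjusted p = 0.887) and 2.12 (SE 0.16, adjusted p = 4.13e-13), and a difference of 2.07 (SE 0.17, adjusted p = 8.92e-13) between the shRNAs. BSN had -0.54 and 0.52, CPLX1 -0.60 and 0.48, SV2A -0.65 and 0.45, and RAB3A -0.21 and 0.63 with shKDM5A-1 and shKDM5A-2. For RAB3A the shKDM5A-1 call was lost without shControl replicate 2 (adjusted p = 0.129) or shKDM5A-1 replicate 1 (adjusted p = 0.146), and for CPLX1 the shKDM5A-2 call was lost without shControl replicate 1 (adjusted p = 0.0549) or shKDM5A-2 replicate 1 (adjusted p = 0.0545). SYT1 had -0.20 and 0.31, the first lost without shControl replicate 1 (adjusted p = 0.0901) or shKDM5A-1 replicate 2 (adjusted p = 0.0559). STX1A was the exception of this group, at 0.28 and 0.21, and its shKDM5A-2 call was lost when any of 5 single libraries was left out, shControl replicate 2 among them (adjusted p = 0.111).

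Of 11 cytoskeleton genes tested, 1 rose and 8 fell with shKDM5A-1, and 6 rose and 3 fell with shKDM5A-2. DPYSL3, a collapsin response mediator of growth cones (chr5:147390811-147510056), fell with both. It had 5.93, 5.59 and 5.92 CPM in shControl, against 1.31, 1.30 and 1.5 in the shKDM5A-1 libraries and 3.36, 2.72 and 2.90 in the shKDM5A-2 libraries. The groups did not overlap, with log2 fold changes of -2.08 (SE 0.17, adjusted p = 1.14e-12) and -0.96 (SE 0.14, adjusted p = 8.27e-07), and the shRNAs differed by 1.12 (SE 0.18, adjusted p = 2.83e-06). STMN3 had 44.3, 47.4 and 46.1 CPM in shControl, against 26.6, 26.0 and 25.6 in the shKDM5A-1 libraries and 74.0, 72.9 and 73.2 in the shKDM5A-2 libraries. The controls lay between both shRNAs, with log2 fold changes of -0.82 (SE 0.05, adjusted p = 2.3e-16) and 0.67 (SE 0.04, adjusted p = 1.41e-16), and a difference of 1.49 (SE 0.04, adjusted p = 2.97e-25). INA had 23.7, 23.7 and 22.1 CPM in shControl, against 11.3, 12.5 and 10.7 in the shKDM5A-1 libraries and 21.5, 22.5 and 20.6 in the shKDM5A-2 libraries. It fell with shKDM5A-1 (log2 fold change -1.01, SE 0.07, adjusted p = 4.14e-14), and its -0.11 with shKDM5A-2 did not pass (adjusted p = 0.173).

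TUBB3, the neuronal tubulin, had 16.6, 16.3 and 18 CPM in shControl, against 13.6, 13.8 and 11.7 in the shKDM5A-1 libraries and 29.7, 31.2 and 30.5 in the shKDM5A-2 libraries. Its groups were apart in opposite directions, with log2 fold changes of -0.38 (SE 0.07, adjusted p = 5.49e-05) and 0.84 (SE 0.06, adjusted p = 7.94e-14), read with the exons it shares with AC092143.1. STMN2, a stathmin of growing axons that was in no other table, had 6, 5 and 15 counts in shControl, against 3, 5 and 7 in the shKDM5A-1 libraries and 39, 30 and 41 in the shKDM5A-2 libraries. Its log2 fold changes were -0.50 (SE 0.48, adjusted p = 0.437), which did not pass, and 2.14 (SE 0.35, adjusted p = 5.84e-06), and it passed the filter through its shKDM5A-2 libraries. MAPT, the gene of tau, had -0.24 and 0.28, and DPYSL5, another collapsin response mediator, 0.24 and 0.71. The neurofilament genes fell with both shRNAs, NEFL by 0.39 and 0.11 and NEFM by 0.36 and 0.77 on the log2 scale.

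All 3 kinesins were higher with shKDM5A-2 than with shKDM5A-1. KIF5C (chr2:148875250-149026759) had 45.1, 43.0 and 43.3 CPM in shControl, against 35.8, 36.7 and 39.7 in the shKDM5A-1 libraries and 88.8, 92.8 and 81.6 in the shKDM5A-2 libraries. On the log2 scale the fold changes were -0.23 (SE 0.05, adjusted p = 0.000645) and 1.00 (SE 0.04, adjusted p = 8.7e-18). KIF1A had -0.20 and 0.48, and KIF5A -0.06, which did not pass, and 0.27.

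Adhesion molecules and receptors mostly fell with shKDM5A-1, 5 of 7 tested, while 1 rose and 2 fell with shKDM5A-2. NRXN2, a presynaptic neurexin (chr11:64606174-64723188), had 7.77, 8.51 and 9.84 CPM in shControl, against 3.34, 3.28 and 3.87 in the shKDM5A-1 libraries and 7.04, 7.52 and 7.31 in the shKDM5A-2 libraries. It fell with shKDM5A-1 (log2 fold change -1.32, SE 0.12, adjusted p = 4.51e-11), and its -0.26 with shKDM5A-2 did not pass (adjusted p = 0.0504). GABRD had 5.11, 4.32 and 3.87 CPM in shControl, against 2.14, 2.03 and 1.91 in the shKDM5A-1 libraries and 4.25, 4.28 and 5.47 in the shKDM5A-2 libraries. The shKDM5A-1 libraries alone stood apart, with log2 fold changes of -1.12 (SE 0.17, adjusted p = 9.53e-07) and 0.08 (SE 0.14, adjusted p = 0.693). NCAM1 fell by 0.61 and 0.19, NLGN2 had -0.23 and 0.24, and PRTG 0.17, which did not pass, and -0.30. Of the regulators, CDK5R1 rose by 0.22 and 0.19, the first call lost without shKDM5A-1 replicate 3 (adjusted p = 0.0610) and with DESeq2 (adjusted p = 0.0928), and the second when any of 5 single libraries was left out, shControl replicate 2 among them (adjusted p = 0.0753), and RUNDC3A rose with shKDM5A-2 by 0.70. CHGA and VGF, the granins tested, did not pass with either shRNA.

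**Figure D3:**
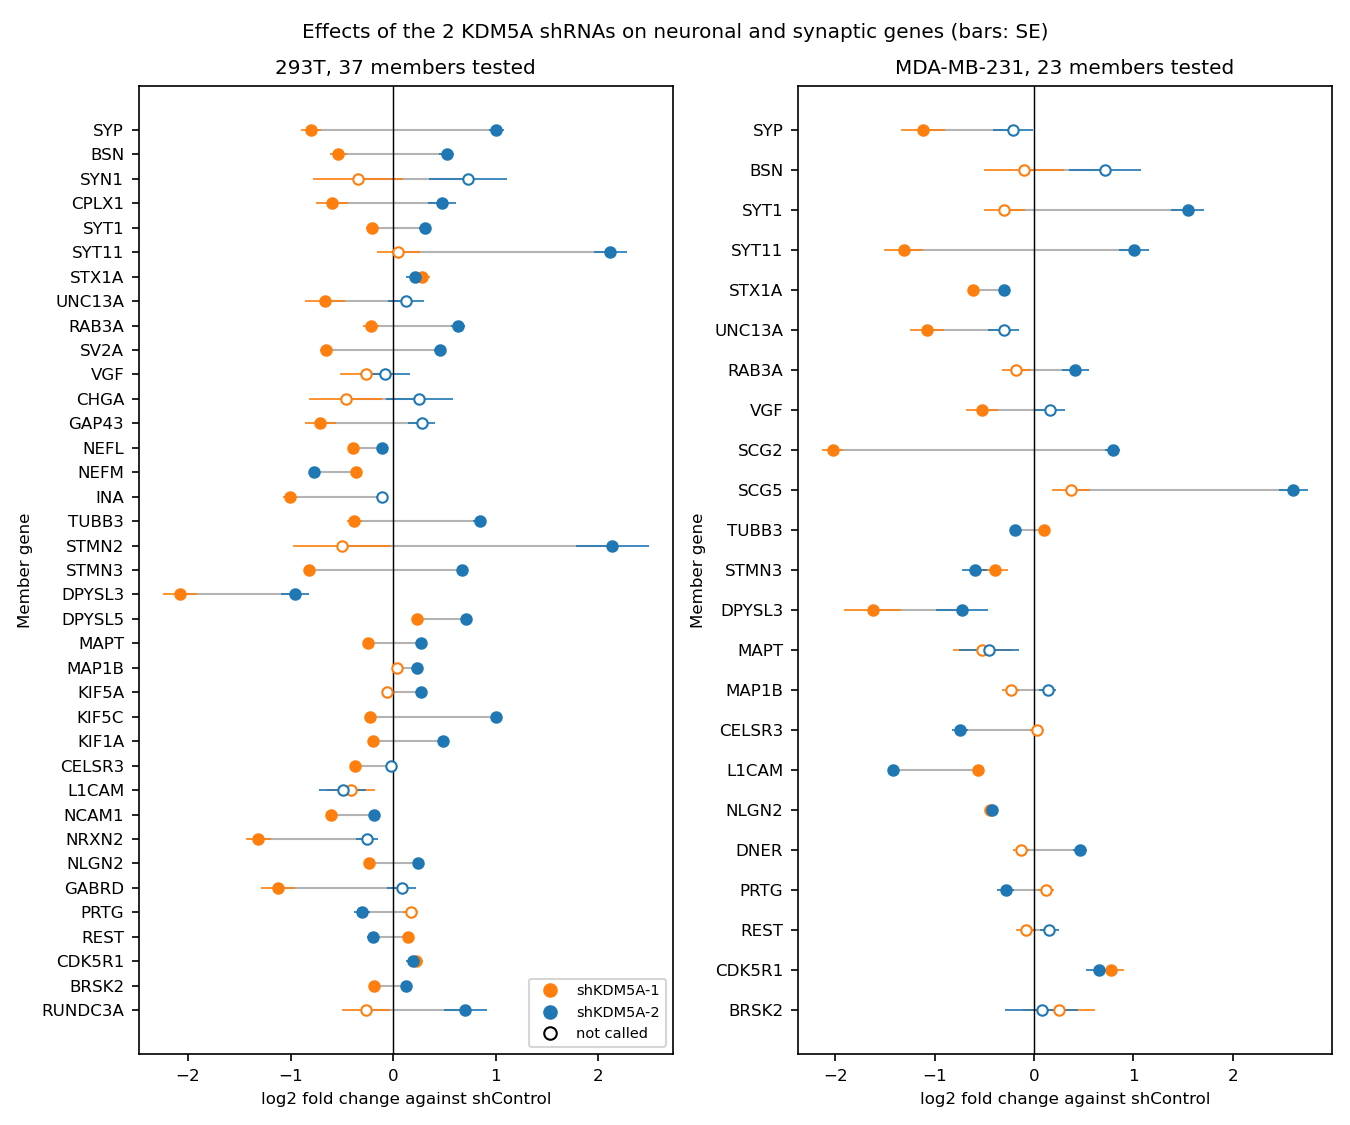
Log2 fold changes of the members against shControl with shKDM5A-1 (orange) and shKDM5A-2 (blue) in 293T and MDA-MB-231; points are estimates, bars ± SE, and open points did not pass an adjusted p of 0.05. In 293T the orange points lie mostly left of 0 (median -0.36) and the blue ones mostly right of it (median 0.26), with SYP at -0.80 and 1.01 and STMN3 at -0.82 and 0.67.

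Of 6 tested members with an exact RE1 part in the promoter window, 0 rose and 3 fell with shKDM5A-1 and 1 rose and 1 fell with shKDM5A-2, beside 4 rising and 13 falling, and 15 rising and 2 falling, of 21 tested members without one. No test was made.

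The wider lists gave these counts. Of 33 other vesicle genes, 5 rose and 15 fell with shKDM5A-1 and 14 rose and 3 fell with shKDM5A-2. SYT2 fell with both, by 1.95 and 0.72 on the log2 scale, and SYNGR3 rose by 0.39 and 0.36. Of 23 ion channels and receptors, 1 rose and 13 fell with shKDM5A-1 and 6 rose and 2 fell with shKDM5A-2. The nicotinic receptor genes CHRNA3, at -0.34 and -0.36, and CHRNA5, at 0.24 and 0.30, moved with both. Of 17 transcription factors, 3 rose and 4 fell with shKDM5A-1 and 5 rose and 3 fell with shKDM5A-2. Of 21 REST corepressors and regulators, 8 rose and 3 fell with shKDM5A-1 and 3 rose and 4 fell with shKDM5A-2. KDM1A, the demethylase that REST recruits, rose by 0.23 and 0.06. BTRC, named here after its values were seen, had -1.19 and 0.08 in 293T, the second not called, and -1.31 and 0.29 in MDA-MB-231. Of 7 glial markers tested in 293T, 2 rose and 2 fell with shKDM5A-1 and 1 rose and 0 fell with shKDM5A-2, and their sum ran from 44.9 to 46.02 CPM in shControl and from 46.8 to 54.2 with the shRNAs. The MDA-MB-231 markers summed to between 1401 and 1424 CPM in shControl and between 938.9 and 1237 with the shRNAs, and the 293T markers to between 428.5 and 429.7 and between 439.4 and 484.2. Their part in the results was not tested.

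In MDA-MB-231 the members also differed between the shRNAs. Of 23 members tested, 2 rose and 10 fell with shKDM5A-1, where 28.1% of 15454 genes rose and 27.2% fell. With shKDM5A-2, 7 rose and 8 fell, where 29.4% rose and 29.6% fell. In the direct contrast 12 were higher and 4 lower with shKDM5A-2 than with shKDM5A-1, where 26.9% of genes were higher and 29.7% lower. The median log2 fold change of the members was -0.30, 0.08 and 0.37 in these comparisons, against -0.00, 0.00 and -0.00 for all genes.

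Of 3 granins tested, 2 fell with shKDM5A-1 and 2 rose with shKDM5A-2. SCG2 (chr2:223596940-223602503) had 13.1, 13.8 and 13.6 CPM in shControl, against 3.21, 3.23 and 3.51 in the shKDM5A-1 libraries and 24.9, 22.5 and 22.9 in the shKDM5A-2 libraries. The controls lay between the shRNAs with wide gaps on both sides. The log2 fold changes were -2.02 (SE 0.10, adjusted p = 4.09e-17) and 0.79 (SE 0.07, adjusted p = 4.06e-11), and the shRNAs differed by 2.82 (SE 0.09, adjusted p = 4.11e-22). SCG5, a chaperone of a prohormone convertase (chr15:32641676-32697098), had 1.42, 1.56 and 1.83 CPM in shControl, against 2.18, 1.89 and 2.23 in the shKDM5A-1 libraries and 9.14, 10.2 and 10.4 in the shKDM5A-2 libraries. It rose with shKDM5A-2 (log2 fold change 2.61, SE 0.14, adjusted p = 1.71e-16), and its 0.37 with shKDM5A-1 did not pass (adjusted p = 0.118). The shRNAs differed by 2.24 (SE 0.13, adjusted p = 1.76e-15). VGF fell with shKDM5A-1 by 0.53, a call lost without shKDM5A-1 replicate 2 (-0.38, adjusted p = 0.0597).

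Of 7 vesicle genes tested, 4 fell with shKDM5A-1, and 3 rose and 1 fell with shKDM5A-2. SYT11 had 3.03, 2.62 and 3.25 CPM in shControl, against 0.979, 1.28 and 1.34 in the shKDM5A-1 libraries and 5.36, 6.34 and 6.26 in the shKDM5A-2 libraries. The shRNAs stood on either side of the controls, with log2 fold changes of -1.31 (SE 0.20, adjusted p = 1.12e-06) and 1.00 (SE 0.15, adjusted p = 6.48e-07), and a difference of 2.32 (SE 0.17, adjusted p = 4.45e-13). SYT1 had 3.10, 1.69 and 2.69 CPM in shControl, against 2.34, 2.06 and 1.67 in the shKDM5A-1 libraries and 8.38, 6.88 and 6.64 in the shKDM5A-2 libraries. It rose with shKDM5A-2 (log2 fold change 1.54, SE 0.17, adjusted p = 1.81e-09), and the shKDM5A-1 libraries overlapped the controls. SYP had 2.29, 2.37 and 3.30 CPM in shControl, against 1.03, 1.17 and 1.5 in the shKDM5A-1 libraries and 2.44, 2.31 and 2.21 in the shKDM5A-2 libraries. It fell with shKDM5A-1 (log2 fold change -1.12, SE 0.22, adjusted p = 7.02e-05), while the shKDM5A-2 libraries overlapped the controls. UNC13A had 3.78, 3.81 and 5.08 CPM in shControl, against 2.12, 1.95 and 2.01 in the shKDM5A-1 libraries and 3.09, 3.49 and 3.78 in the shKDM5A-2 libraries. It fell with shKDM5A-1 (log2 fold change -1.07, SE 0.17, adjusted p = 3.03e-06), and its -0.30 with shKDM5A-2 did not pass (adjusted p = 0.0976). STX1A fell with both shRNAs, by 0.61 and 0.30. RAB3A rose with shKDM5A-2 by 0.42, a call lost with DESeq2 (adjusted p = 0.0825).

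**Figure D4:**
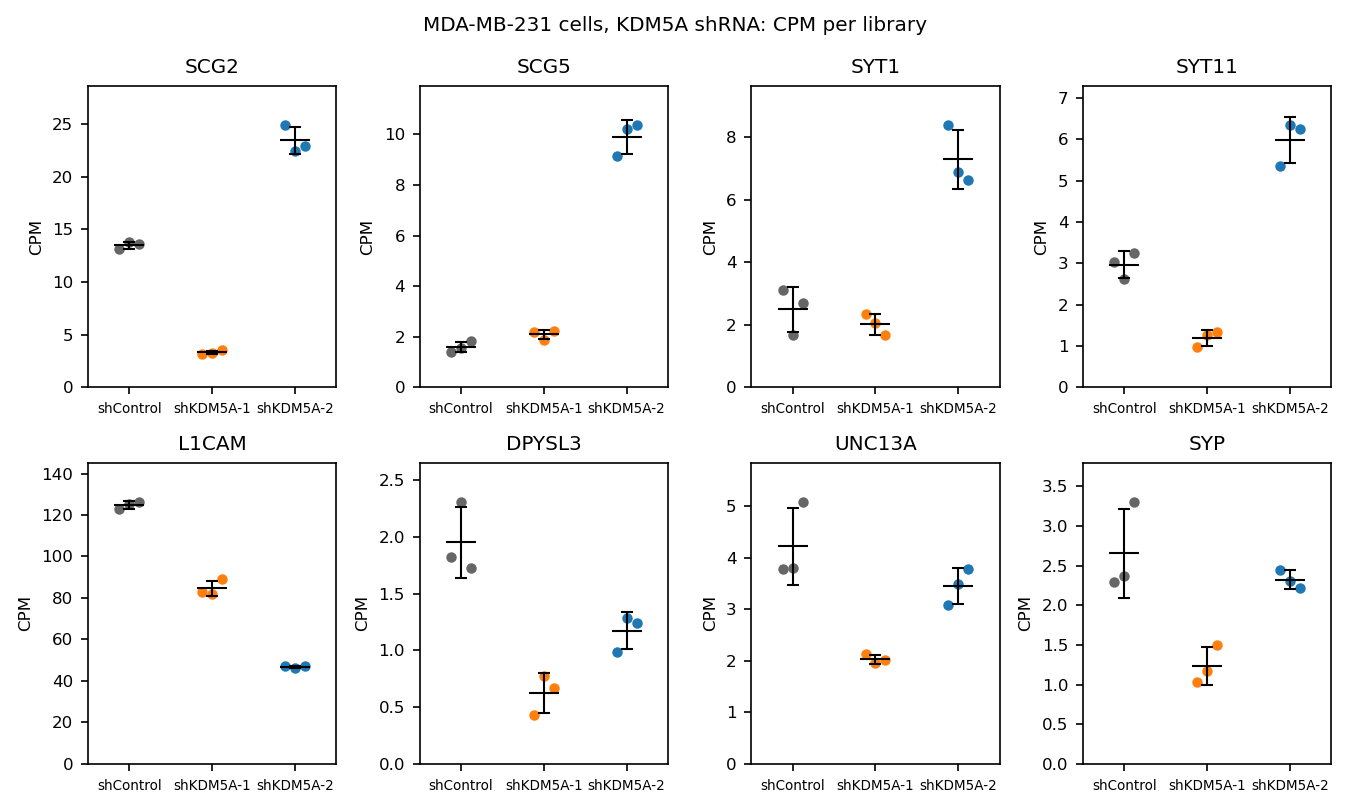
CPM (linear axes from 0) of 8 members in the 9 libraries of the MDA-MB-231 KDM5A experiment; points are libraries and bars give the group mean ± SD (n = 3). In SCG2 and SYT11 the shKDM5A-1 libraries lie below and the shKDM5A-2 libraries above all controls, and in L1CAM and DPYSL3 both shRNAs lie below.

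L1CAM had 123, 125 and 126 CPM in shControl, against 82.9, 82.1 and 88.9 in the shKDM5A-1 libraries and 47.0, 46.2 and 47.1 in the shKDM5A-2 libraries. It fell with both and lay lower with shKDM5A-2; the log2 fold changes were -0.56 (SE 0.04, adjusted p = 5.03e-15) and -1.42 (SE 0.04, adjusted p = 7.67e-25), and the shRNAs differed by -0.86 (SE 0.04, adjusted p = 2.76e-18). DPYSL3 had 1.82, 2.31 and 1.73 CPM in shControl, against 0.435, 0.779 and 0.669 in the shKDM5A-1 libraries and 0.990, 1.29 and 1.24 in the shKDM5A-2 libraries. Its log2 fold changes were -1.62 (SE 0.29, adjusted p = 1.4e-05) and -0.72 (SE 0.26, adjusted p = 0.017), the second lost without shControl replicate 2 (-0.59, adjusted p = 0.0930) and without shKDM5A-2 replicate 1 (adjusted p = 0.0695). NLGN2 fell by 0.44 and 0.43, and STMN3 by 0.39 and 0.60, its shKDM5A-1 call lost without shKDM5A-1 replicate 1 (-0.27, adjusted p = 0.0934). CELSR3 had 0.03, which did not pass, and -0.75. PRTG had 0.12, which did not pass, and -0.29, a call lost without shKDM5A-2 replicate 2 (-0.21, adjusted p = 0.0501). CDK5R1 rose by 0.77 and 0.66, and DNER with shKDM5A-2 by 0.46. TUBB3 rose by 0.11 with shKDM5A-1 and fell by 0.19 with shKDM5A-2, the first call lost without shControl replicate 2 (adjusted p = 0.0511) or replicate 3 (adjusted p = 0.0559).

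The lists around the members had the following counts in this experiment. Of 21 other vesicle genes, 7 rose and 4 fell with shKDM5A-1 and 8 rose and 5 fell with shKDM5A-2, with PTPRN2 at 1.24 and 1.01 and SYT2 at -1.94 and -0.97. Of 10 ion channels and receptors, 0 rose and 6 fell with shKDM5A-1 and 3 rose and 3 fell with shKDM5A-2. HCN2, a pacemaker channel gene, had -1.21 and -1.42, and GABBR1, a GABA-B receptor gene, -0.55 and -0.86. Of 21 REST corepressors and regulators, 5 rose and 8 fell with shKDM5A-1 and 6 rose and 10 fell with shKDM5A-2. The phosphatase gene CTDSPL fell by 0.85 and 0.54, and RCOR1, which bridges REST to KDM1A, rose by 0.49 and 0.36. Of 3 transcription factors, 0 rose and 2 fell with shKDM5A-1 and 1 rose and 1 fell with shKDM5A-2, with SOX4 at -0.77 and -0.70. Of 5 glial markers, 0 rose and 2 fell with shKDM5A-1 and 1 rose and 3 fell with shKDM5A-2, and their sum ran from 127.7 to 135.1 CPM in shControl and from 108.6 to 124.9 with the shRNAs. The MDA-MB-231 markers summed to between 8663 and 8771 CPM in shControl and between 6648 and 8242 with the shRNAs, with 8 of 12 lower with shKDM5A-1 and 9 with shKDM5A-2. Their part in the results was not tested.

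REST (chr4:56907876-56966678) was measured in all 36 libraries. In 293T it had 39.8, 41.2 and 32.3 CPM in siControl, against 39.0, 41.8 and 35.3 in the siEglN2-1 libraries and 37.6, 35.6 and 37.5 in the siEglN2-2 libraries. These groups overlapped, and the log2 fold changes of 0.03 (95% interval -0.15 to 0.21) and -0.04 (-0.22 to 0.14) did not pass. In the 293T KDM5A experiment it had 33.1, 27.6 and 29.8 CPM in shControl, against 33.1, 32.7 and 34.1 in the shKDM5A-1 libraries and 26.9, 25.5 and 26.0 in the shKDM5A-2 libraries. All shKDM5A-2 libraries lay below all others, and shKDM5A-1 overlapped shControl. On the log2 scale the fold changes were 0.15 (SE 0.06, adjusted p = 0.0313) and -0.20 (SE 0.06, adjusted p = 0.00486). The first was lost in 6 of 16 alternatives, among them leaving out shControl replicate 2 (0.09, adjusted p = 0.273), shControl replicate 3, shKDM5A-1 replicate 1 or shKDM5A-1 replicate 3, and the second without shControl replicate 1 (-0.13, adjusted p = 0.0886). The direct difference of -0.35 (SE 0.06, adjusted p = 4.12e-06) between the shRNAs held in all 16 alternatives.

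In MDA-MB-231, REST had 32.3, 33 and 29 CPM in siControl, against 28.4, 28.9 and 27.9 in the siEglN2-1 libraries and 28.6, 30.3 and 31.0 in the siEglN2-2 libraries. The log2 fold changes were -0.15 (SE 0.06, adjusted p = 0.0273) and -0.07 (SE 0.05, adjusted p = 0.308), and the first was lost without siControl replicate 1 (-0.13, adjusted p = 0.111), siControl replicate 2 (adjusted p = 0.158), siEglN2-1 replicate 1 or siEglN2-1 replicate 3. With the shRNAs it had 41.9, 47.4 and 45.3 CPM in shControl, against 44.8, 46.4 and 36.2 in the shKDM5A-1 libraries and 47.7, 47.6 and 54.6 in the shKDM5A-2 libraries. The shKDM5A-1 libraries overlapped shControl. All shKDM5A-2 libraries lay above all others, though the lowest, at 47.6, was close to the highest shControl, at 47.4. Neither -0.08 with shKDM5A-1 nor 0.16 with shKDM5A-2 passed (adjusted p = 0.547 and 0.222). The RNA level says nothing of REST protein or its binding.

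**Figure D5:**
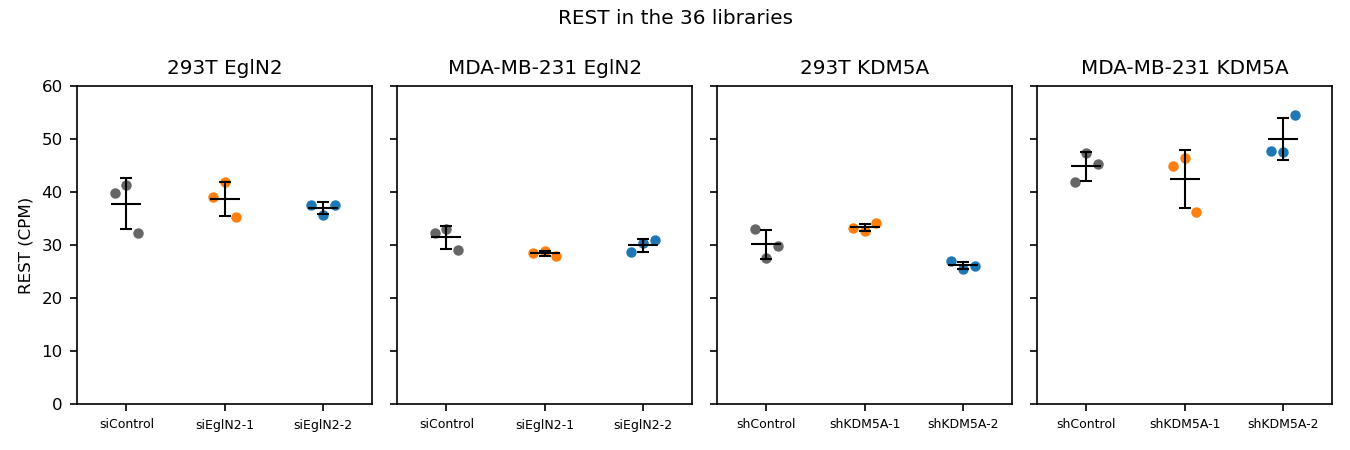
REST level in CPM (linear axis from 0) in the 36 libraries, by line and group; points are libraries and bars give the group mean ± SD (n = 3). The levels run from 25.5 CPM with shKDM5A-2 in 293T to 54.6 CPM with shKDM5A-2 in MDA-MB-231, and in 293T shKDM5A-2 lies below shControl and shKDM5A-1.

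The difference of effect between the lines was tested as an interaction over the 18 libraries of each target. For siEglN2-1, 20 members were tested, and the effect was higher in MDA-MB-231 than in 293T for 1 and lower for 6, where 14.1% of 14579 genes were higher and 11.8% lower. For siEglN2-2 it was higher for 3 and lower for 4, where 13% were higher and 10.7% lower. The effect on SYP, MDA-MB-231 minus 293T, differed by -1.28 (SE 0.22, adjusted p = 0.00036) and -1.32 (SE 0.22, adjusted p = 0.000313), and that on PRTG by -1.47 (SE 0.19, adjusted p = 4.37e-05) and -1.40 (SE 0.19, adjusted p = 6.7e-05). The effect on BRSK2 differed by 2.16 (SE 0.29, adjusted p = 0.000138) and 2.5 (SE 0.27, adjusted p = 4.09e-06), from the low counts given above. The median difference over the members was -0.21 and -0.09, against 0.01 and 0.02 for all genes.

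For the shRNAs 21 members were tested. The effect of shKDM5A-1 was higher in MDA-MB-231 for 4 and lower for 3, where 21.6% of 14767 genes were higher and 17.8% lower. That of shKDM5A-2 was higher for 4 and lower for 9, where 23.5% were higher and 24.8% lower. REST was among the 4, with a difference of 0.34 (adjusted p = 0.0349). That call was lost without 293T shControl replicate 1 (adjusted p = 0.0792) or MDA-MB-231 shKDM5A-2 replicate 3 (0.0669), among other single libraries. SYT11 differed by -1.35 (SE 0.29, adjusted p = 0.000241) and -1.13 (SE 0.23, adjusted p = 7.17e-05), STX1A by -0.88 (SE 0.09, adjusted p = 3.41e-10) and -0.52 (SE 0.09, adjusted p = 5.06e-06), and CDK5R1 by 0.56 (SE 0.14, adjusted p = 0.0017) and 0.45 (SE 0.14, adjusted p = 0.00977). The last of these was lost without MDA-MB-231 shControl replicate 2 (adjusted p = 0.0592). The median difference over the members was -0.08 and -0.23, against 0.02 and -0.00 for all genes.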

How the data were processed

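Per the labels' protocols, RNA was extracted with the RNeasy Mini kit and 1 µg went into NEBNext Ultra II libraries. The submitters' processing notes name STAR 2.4.2 with Salmon 0.1.19, and 2 builds (GRCh38, hg19), without saying which step used which. The deposited tables hold estimated counts per gene, not normalized, for 9 libraries each, and they were rounded to whole numbers. The tables' 36 normalized columns were not used, and 20 to 22 rows per table whose gene names had turned into dates (0.194% to 0.209% of counts) were left out.

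Each experiment was fitted with edgeR 4.0.16 in R 4.3.3 (TMM scaling, filterByExpr with a minimum count of 10, robust quasi-likelihood F-test) over its 9 libraries, with Benjamini-Hochberg adjustment over all genes tested and calls at an adjusted p under 0.05. Differences between lines were interaction terms over 18 libraries. Tables of different experiments were deposited separately, so levels set across them are descriptive. CPM divide each count by its TMM-adjusted library total, and CPM per kilobase divide by exon length in GENCODE 29 (GRCh38), which also gave the gene coordinates. The procedure was tested on simulated data. Intervals cover the spread between libraries as fitted. They take the estimate ± a normal quantile times the SE, with the SE derived from the F statistic. The F-test itself would give wider intervals, so those printed are too narrow.

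The members and lists were chosen with earlier results of these data known. Per-library values are given for REST, for up to 8 members called with both siRNAs in each EglN2 experiment, up to 5 called with each shRNA in each KDM5A experiment, up to 3 with the largest called difference between the shRNAs in each line and up to 3 with the largest called interaction for each target, all with an average log2 CPM of at least 0. From each other list up to 3 genes called with both reagents in 1 direction could be named. Further values per library are shown for members at low counts and for members whose call rests on single libraries, chosen after their values were seen. Alternatives were DESeq2 1.42.0, its size factors, other filters, only the libraries of a comparison, a replicate block, a stricter threshold and each library left out in turn.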

Additional observations from a re-analysis of the deposited data

Results flagged for a closer look

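Between the lines, the effect of an EglN2 siRNA differed for BRSK2, by 2.16 with siEglN2-1 and 2.5 with siEglN2-2 on the log2 scale (MDA-MB-231 minus 293T, edgeR interaction term). In MDA-MB-231 siControl BRSK2 had 8 counts summed over 3 libraries, so its differences rest on few counts. For PRTG the differences were -1.47 and -1.40, and for SYP -1.28 and -1.32.

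The effect of a KDM5A shRNA differed between the lines for SYT11, by -1.35 with shKDM5A-1 and -1.13 with shKDM5A-2. For STX1A the differences were -0.88 and -0.52, and for CDK5R1 they were 0.56 and 0.45. Each of these 12 differences was tested directly and had an adjusted p under 0.05 over all genes. The CDK5R1 difference of 0.45 with shKDM5A-2 was lost without MDA-MB-231 shControl replicate 2 (adjusted p = 0.0592).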

How the results depend on the processing

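Of 226 calls of members over the comparisons, 183 held under every alternative run for them, 43 were lost under at least 1 and 0 reversed. For the members named with a change against their controls, losses without a single library stand beside them. DESeq2 lost 20 calls, and not all of these losses are named. The count of members called with siEglN2-1 in 293T was 13 in place of 20 when only genes with an average log2 CPM of at least 1 were tested, a filter that leaves fewer genes. Over all alternatives the counts ran from 13 to 23 and from 14 to 24 with siEglN2-1 and siEglN2-2 in 293T, and from 8 to 11 with either in MDA-MB-231. They ran from 22 to 28 and from 24 to 28 with shKDM5A-1 and shKDM5A-2 in 293T, and from 11 to 13 and from 13 to 17 in MDA-MB-231. The shares of all genes called under each alternative are not given, so these counts are not read as particular to the members.

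Same-numbered libraries did not deviate together: over 34 pairs the correlation of their deviations from the group means ran from -0.184 to 0.0900, and 0 pairs were over 0.1. No pairing by number was therefore seen. Deviations within groups of 3 libraries cannot exclude a culture or batch shared by number. With the replicate block, 22 and 24 members were called with siEglN2-1 and siEglN2-2 in 293T, 27 and 26 with shKDM5A-1 and shKDM5A-2 there and 32 between the shRNAs. In MDA-MB-231 the block gave 11 and 11, 12 and 15, and 16, and for the differences between lines 8, 9, 7 and 12. These counts too stand without the shares of all genes. The unnumbered control library of 293T could not enter the block. Members at a few counts per library are limited by depth.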
